A study of Mus musculus with 36 samples.

Results

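The genes described here are 10 sensors of foreign or misplaced nucleic acid and their adaptors, taken from the gene table by symbol. They were the RIG-I-like receptors Ddx58, Ifih1 and Dhx58, the endosomal receptor Tlr3, the adaptors Mavs and Tmem173, the transcription factor Irf3, the double-stranded RNA kinase Eif2ak2, the RNA editor Adar and the Z-form nucleic acid sensor Zbp1. Ddx58 is called Rigi and Tmem173 is called Sting1 in newer naming. All 10 were found among the 54842 genes of the table, and all 10 passed the filter on low counts that left 28536 genes for testing. They were chosen with earlier results of these data known.

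RIG-I-like receptors bind double-stranded RNA in the cytoplasm and signal through MAVS at the mitochondrial surface, TLR3 reads double-stranded RNA in endosomes, and STING relays the signal of the DNA sensor cGAS. These routes meet at kinases that activate IRF3, which switches on type I interferon, and interferon in turn raises the transcription of several of the sensors. PKR, the product of Eif2ak2, stops translation when it meets double-stranded RNA, ADAR1 edits such RNA so that it is less readily sensed, and ZBP1 binds left-handed nucleic acid and can start cell death through RIPK3.

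Mouse embryonic fibroblasts (MEF) carried a doxycycline-inducible dCas9, a Cas9 without cutting activity, and a guide RNA to the major satellite repeats (MSR) of pericentric heterochromatin. In the MSR-dCas9-Activator line dCas9 was fused to the VPR transcriptional activator, and in the MSR-dCas9-Control line it was unfused. Both lines were kept as mixed cultures after PiggyBac transfection and hygromycin selection, so neither was a single clone. Total RNA was sequenced from 12 groups of 3 replicates: each line without doxycycline (uninduced), at the end of induction with 10 ng/ml doxycycline, and 3, 6, 12 and 24 h after the drug was removed. Control cells were induced for 24 h and Activator cells for 6 h, so from induction on the length of exposure to doxycycline and the line cannot be told apart. The study reports no loss of viability in either line at the end of induction. By the last time point it reports that most Activator cells were apoptotic or dead, while Control cells stayed viable. The last Activator libraries are therefore not those of an intact culture, and the part of cell death in the late differences was not tested.

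Gene counts per library ran from 27376846 to 57371803 (median 42865961). Expression is given in CPM, the counts of a gene scaled to a common library size after TMM normalisation, which corrects for differences in composition between libraries. The transcript of the repeats targeted by the guide, the major satellite family GSAT_MM, lay between 22.6 and 47.1 CPM in the 18 Control libraries, between 52.1 and 99.3 CPM in the 3 uninduced Activator libraries and between 2363 and 47260 CPM in the 15 later Activator libraries. The fibroblast markers summed to between 15537 and 25365 CPM in Control and between 5434 and 24938 CPM in Activator libraries, with Thy1 at no more than 6 counts in any library. Of the macrophage and leukocyte markers, Adgre1 did not exceed 3 and Tyrobp did not exceed 2 counts in any library, while Itgam reached 234 and Ptprc 58 counts (5.27 and 1.23 CPM, against medians of 0.210 and 0.0626 CPM). The 6 leukocyte markers together summed to between 7.76 and 11.6 CPM in Control and between 7.32 and 22.9 CPM in Activator libraries, with Csf1r at 6.73 to 18.0 CPM, and the part of these markers in the results was not tested.

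Replicate 2 of the Activator line stood apart at 6, 12 and 24 h. Its libraries lay farthest of all 36 from the mean of their own groups, at root mean square distances of 0.397, 0.345 and 0.397 on the log2 scale, against a median of 0.181. In these libraries 8, 10 and 10 of the 10 genes had their highest value of the group. This was not counted over all genes, so it is no result about the 10. The median ratio of the 10 to the mean of replicates 1 and 3 was 1.92, 1.59 and 1.99. Replicate 2 was also the highest for 7 of the 10 at the end of induction and for 8 at 3 h. The median ratios there were 1.20 and 1.19, and the distances from the group mean were 0.320 and 0.266. The satellite transcript did not follow this order: at 24 h it was at 11495, 10777 and 35437 CPM in replicates 1, 2 and 3. Values for 6 to 24 h are therefore given with and without these 3 libraries where a call or a size depends on them.

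**Figure D1:**
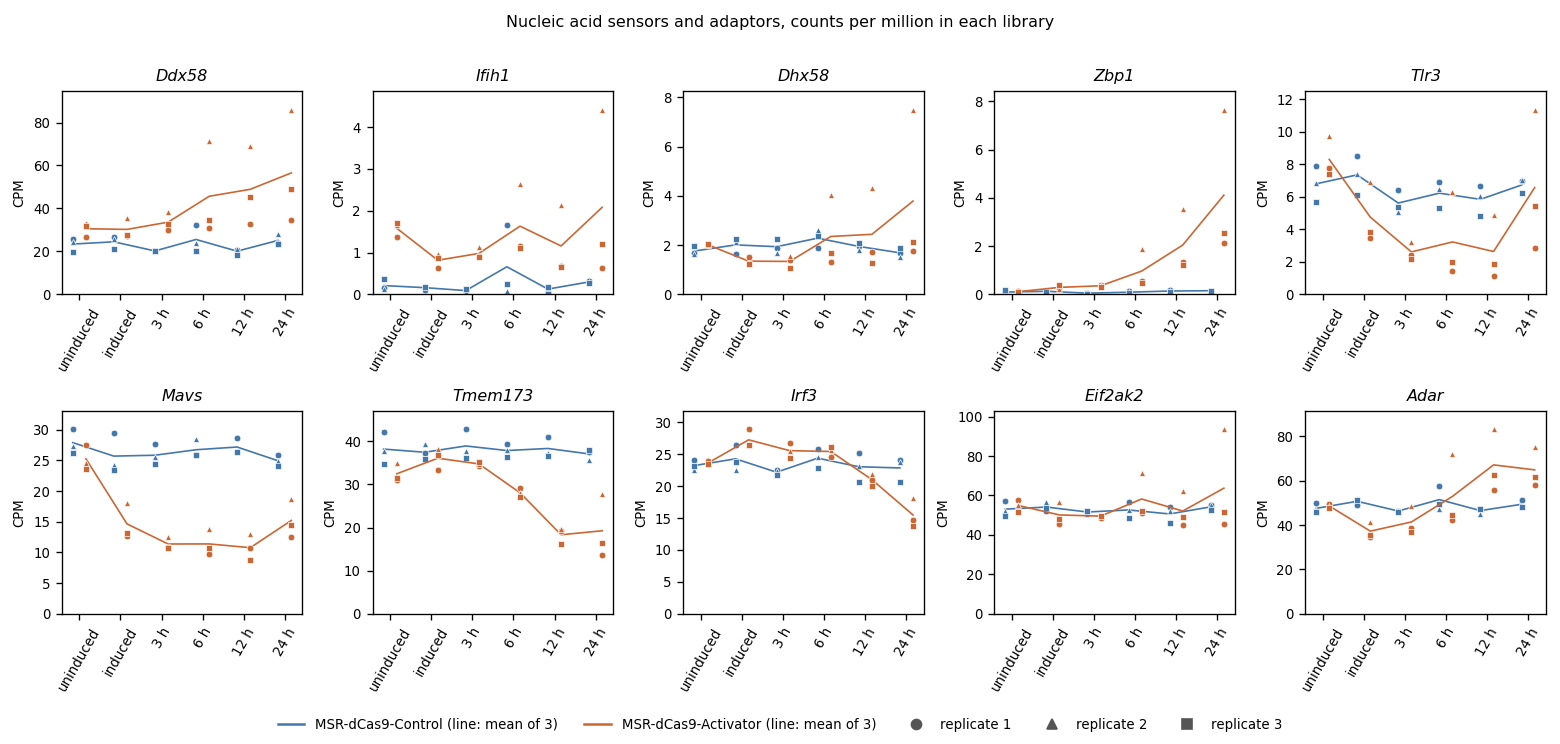
Expression (CPM, linear axis from 0) of the 10 genes in each of the 36 libraries, by line and time, with lines through the group means of 3 replicates. No gene passed over time in the Control line, Zbp1 and Ddx58 climb and Mavs and Tmem173 decline in the Activator line, and replicate 2 (triangles) is the highest Activator library for all 10 genes at 12 and 24 h.

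Before induction 9 of the 10 genes did not pass between the lines. In RPKM, which divides CPM by the length of the exons in kilobases so that genes can be compared, uninduced Control cells expressed Tmem173 most, at 13.9 ± 1.36 RPKM (SD, n = 3), followed by Eif2ak2 at 10.4 ± 0.726, Mavs at 8.33 ± 0.601, Irf3 at 6.74 ± 0.216, Adar at 5.86 ± 0.285, Ddx58 at 3.32 ± 0.444, Tlr3 at 1.31 ± 0.209 and Dhx58 at 0.538 ± 0.0564 RPKM. Zbp1 and Ifih1 were barely expressed, at 0.0270 ± 0.0243 and 0.0258 ± 0.0155 RPKM. Neighbours in this order did not overlap between their 3 libraries, apart from Zbp1 and Ifih1, which did. The uninduced Activator line held the same order for its 8 most expressed members, from Tmem173 at 11.8 ± 0.785 RPKM to Dhx58 at 0.617 ± 0.00716 RPKM. In bulk RNA, as here, fewer cells that express a gene and less RNA per cell cannot be told apart.

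The comparison of Activator with Control cells at each time asked how forced satellite transcription and the line itself went with these transcripts. A gene passed when the adjusted p of edgeR's quasi-likelihood test over all 28536 genes was under 0.05. Before induction 1 of the 10 passed (1.23% of all genes tested), and this was Ifih1, which was higher in Activator cells. After it, 3 passed in the induced state (57.3% of all genes), 6 after 3 h (70.9%), 5 after 6 h (74.1%), 7 after 12 h (75.2%) and 8 after 24 h (63.9%). Since most of the transcriptome passed too, the number of members is no result about them, and their sizes, directions and timing are described instead. At 12 h 4 were higher and 3 lower in Activator cells, where 41.1% of all genes were higher and 34.1% lower, and at 24 h 5 were higher and 3 lower, where 34.5% and 29.4% were. These directions are relative to TMM scaling. With mitochondrially encoded mRNAs as the reference, the median of all genes at 12 h was -0.49 in place of 0.12, and 36.7% in place of 54.7% of the genes called were higher. Of the 30 differences called between the lines, 28 kept their sign on that scale and 30 with DESeq2 size factors or without TMM. Still past the test were 23 on the mitochondrial scale, 29 with DESeq2 size factors and 28 without TMM.

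The median log2 fold change of the 10 genes was 0.14 at 12 h and 0.29 at 24 h, against 0.12 and 0.01 over all genes tested. By the limits of the study, a mean normalised count above 100, a log2 fold change beyond 1 and an adjusted p under 0.05, Tlr3 and Mavs were lower at 3 h and 6 h (9.45% and 10.3% of all genes lower). At 12 h Tlr3, Mavs and Tmem173 were lower (10.9%) and Ddx58 was higher (4.29%). At 24 h Ddx58 was the only member past these limits (3.34% of all genes higher), but without the 3 Activator libraries its log2 fold change was 0.92 and below them, and Tmem173 was past them instead, at -1.16. Ifih1, Dhx58 and Zbp1 had mean normalised counts of 34.5, 87.7 and 30.1 and could not reach them. The shares given with these limits are of all 28536 genes tested, of which only 13628 had a mean above 100. Among those that could reach the limits the shares were therefore higher, with 3113 genes lower and 1225 higher at 12 h.

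**Figure D2:**
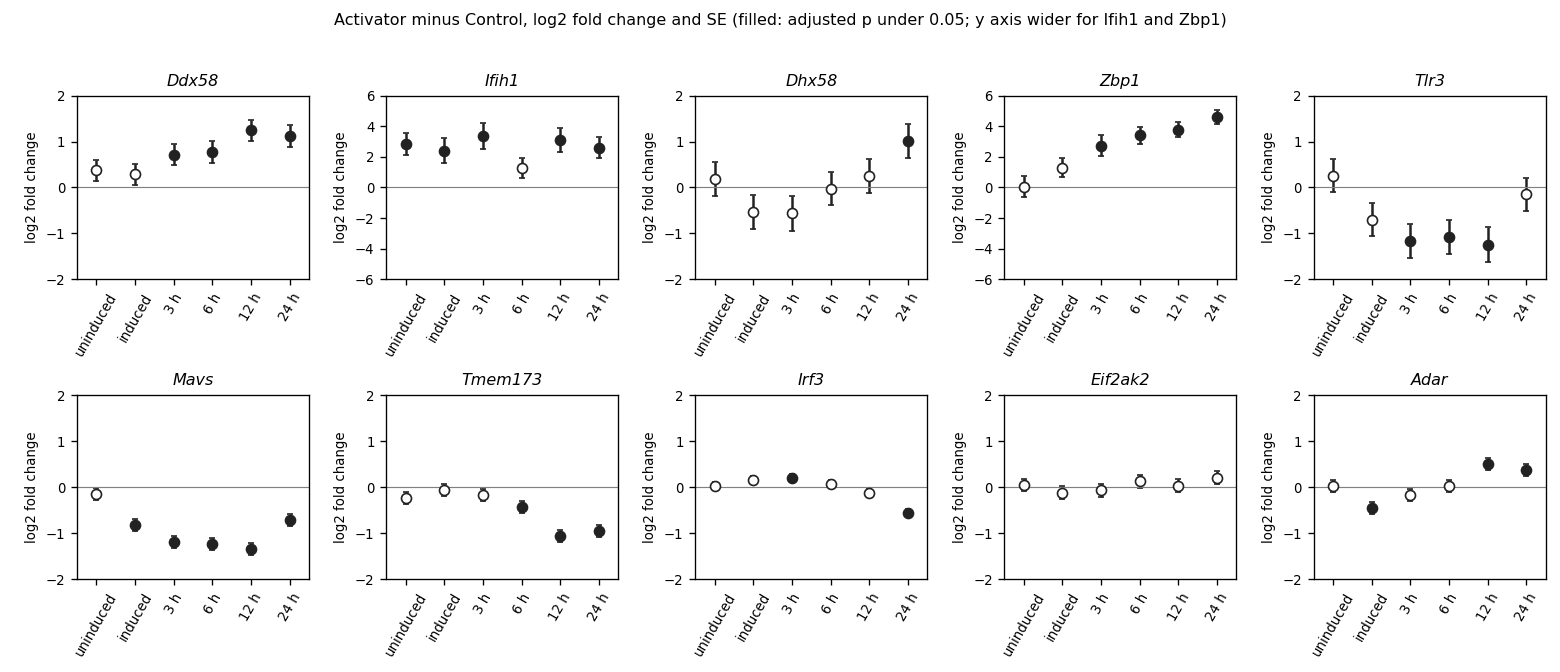
Log2 fold change of Activator against Control cells with its standard error at each time (edgeR, 3 libraries a group), filled where the adjusted p over all genes was under 0.05. Zbp1 goes from 0.06 before induction to 4.60 at 24 h, Mavs is below 0 and past the test from induction on, and Eif2ak2 passes at no time with TMM scaling.

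Ddx58 (ENSMUSG00000040296, GRCm38 chromosome 4, 40203773 to 40239828, minus strand) encodes RIG-I, which recognises short double-stranded RNA with 5′ phosphates. Its level in Control cells was 20.8, 20.9 and 18.5 CPM in replicates 1, 2 and 3 at 12 h and 23.8, 27.9 and 23.6 CPM at 24 h. Activator cells had 32.5, 68.9 and 45.3 CPM at 12 h and 34.6, 86.0 and 49.0 CPM at 24 h. Each Activator library was above each Control library at both times, with replicate 2 the highest. The lines differed by a log2 fold change of 1.24 at 12 h (SE 0.23, adjusted p = 3.4e-05, 2.36-fold) and 1.12 at 24 h (SE 0.23, adjusted p = 0.000163, 2.18-fold). Without the 3 Activator libraries it was 1.08 and 0.92, with adjusted p of 2.46e-06 and 2.52e-05. With mitochondrially encoded mRNAs as the reference it was 0.65 at 12 h (adjusted p = 0.0653), 0.11 at 3 h (adjusted p = 0.775) and 0.08 at 6 h (adjusted p = 0.817), so that on this scale only the 24 h call of these 4 was kept. With TMM the gene had also passed at 3 h, at 0.72 (SE 0.23, adjusted p = 0.00763), and at 6 h, at 0.77 (SE 0.23, adjusted p = 0.00423). In the 6 h groups the libraries overlapped, at 30.9, 71.4 and 34.7 CPM against 32.2, 24.0 and 20.4 CPM, and without the 3 libraries the difference was 0.46 (adjusted p = 0.0149). Before induction and at its end the groups already did not overlap, at 26.5, 33.2 and 32.0 CPM against 25.9, 24.5 and 19.9 CPM before it, but the gene did not pass (adjusted p = 0.626 and 0.286).

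Ifih1 (ENSMUSG00000026896, chromosome 2, 62595798 to 62646255, minus strand) encodes MDA5, the receptor of long double-stranded RNA. It was the member that already separated the lines before induction, at 1.38, 1.66 and 1.71 CPM in Activator and 0.153, 0.123 and 0.356 CPM in Control cells, a log2 fold change of 2.85 (SE 0.70, adjusted p = 0.0386). These values rest on 66, 71 and 66 counts in the Activator and 9, 4 and 15 counts in the Control libraries. The call was lost, though not the direction, when any of the 6 libraries was left out, with adjusted p between 0.0556 and 0.258, and also without TMM, without the filter, without the replicate term and on the mitochondrial scale. It passed again in the induced cells (2.41, SE 0.79, adjusted p = 0.0112), but not without Control replicate 1 (2.19, adjusted p = 0.0536). Later differences were 3.33 at 3 h (SE 0.85, adjusted p = 0.00117), 3.10 at 12 h (SE 0.79, adjusted p = 0.00098) and 2.61 at 24 h (SE 0.67, adjusted p = 0.00156).

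At 24 h Ifih1 was at 0.630, 4.42 and 1.20 CPM in the Activator and 0.312, 0.302 and 0.280 CPM in the Control libraries, so that replicate 2 alone carried most of the group mean. Without the 3 libraries the log2 fold change was 1.71 at 24 h (adjusted p = 0.0171) and 2.37 at 12 h (adjusted p = 0.00553). At 6 h Ifih1 did not pass (1.28, SE 0.64, adjusted p = 0.0735). There 1 Control library, replicate 1, held 1.66 CPM, and replicates 2 and 3 held 0.0837 and 0.241 CPM, and without it the log2 fold change was 3.47 (adjusted p = 1.05e-05). Within the Activator line Ifih1 passed against the uninduced state at no time.

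Dhx58 (ENSMUSG00000017830, chromosome 11, 100694884 to 100704271, minus strand) encodes LGP2, the member of the receptor family that lacks the signalling domains and modulates its relatives. It did not pass from the uninduced state to 12 h, but at 6 h it did without the 3 libraries (-0.57 in place of -0.03, adjusted p = 0.0172). At 24 h it was at 1.75, 7.51 and 2.12 CPM in Activator and 1.68, 1.51 and 1.87 CPM in Control cells. The groups overlapped and replicate 2 stood far above all others. The difference of 1.02 (SE 0.37, adjusted p = 0.0169) was 0.26 (adjusted p = 0.513) without that library alone and was 0.32 (adjusted p = 0.17) without all 3. It was likewise no longer past the test without Control replicate 2 at 24 h (0.79, adjusted p = 0.0979) or on the mitochondrial scale (0.83, adjusted p = 0.13).

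The interferon-stimulated response element, the site bound by the IRF9-containing interferon factor and related IRF proteins, was looked for in the annotated promoters of the 10 genes because interferon is known to raise several of them. Its core, GAAA followed by any 2 bases and GAAA again, was searched on both strands, as the only motif, in windows from 250 bases before to 50 after the start (RefSeq, GRCm38.p6). Windows were given for 7 of the 10, not for Dhx58, Zbp1 and Tmem173, and 3 of the 7 held the core (42.9%), against 1079 of 27025 genes (3.99%) and 1131 of 32851 windows (3.44%). Of the interferon-stimulated genes followed below, 6 of 11 with a window held it (54.5%), and of the pathway partners 5 of 36 (13.9%). The matches lie on the gene's own strand as follows, at chr4:40239806-40239831, chr2:62646206-62646231 and chr17:78882537-78882562, with the core in capitals and read 5′ to 3′ on the minus strand.
Ddx58: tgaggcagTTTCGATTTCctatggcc
Ifih1: agagaatcGAAACAGAAAccgatctg
Eif2ak2: tccgccggGAAAACGAAAcagaagag

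The cores begin at bases 3, 33 and 19 of the annotated transcript of Ddx58, Ifih1 and Eif2ak2, and that of Ddx58 reads in the reverse orientation. With TMM scaling Ddx58 and Ifih1 were higher in Activator cells at 12 and 24 h and Eif2ak2 did not pass, but its result depended on the scaling (values are given with the gene). Of the Tlr3, Mavs, Irf3 and Adar windows none held these letters.

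Tlr3 (ENSMUSG00000031639, chromosome 8, 45395665 to 45411080, minus strand) encodes the endosomal receptor of double-stranded RNA and was the member that declined furthest within the Activator line. Uninduced Activator libraries held 7.76, 9.73 and 7.44 CPM, and induced ones 3.50, 6.89 and 3.87 CPM. The level was 2.41, 3.23 and 2.20 CPM at 3 h, 1.42, 6.29 and 1.97 CPM at 6 h and 1.16, 4.90 and 1.85 CPM at 12 h. At each of these times all 3 libraries lay below all 3 uninduced ones. At 24 h the values spread from 2.88 to 11.4 CPM and again took in the uninduced range.

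Control cells stayed between 4.81 and 8.51 CPM across all times. Between the lines it differed by -1.16 at 3 h (SE 0.38, adjusted p = 0.00793), -1.07 at 6 h (SE 0.38, adjusted p = 0.0126) and -1.25 at 12 h (SE 0.38, adjusted p = 0.00473, 2.38-fold lower). Replicate 2 lay inside the Control range at 6 and 12 h, and without the 3 libraries the differences were -1.76 (adjusted p = 2.26e-06) and -1.83 (adjusted p = 1.97e-06). Leaving out Activator replicate 1 instead ended both calls, at -0.68 (adjusted p = 0.125) and -0.80 (adjusted p = 0.0756). At 6 h the call also ended without Activator replicate 3 (-0.87, adjusted p = 0.0719) or Control replicate 1 (-0.91, adjusted p = 0.053). The lines did not pass at the end of induction or at 24 h. At the end of induction they did in a fit to the 2 groups alone (-0.64, adjusted p = 0.0491) and relative to mitochondrially encoded mRNAs (-1.07, adjusted p = 0.0476).

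Mavs (ENSMUSG00000037523, chromosome 2, 131234063 to 131248025, plus strand) encodes the mitochondrial adaptor on which RIG-I and MDA5 both depend, and its change came early. Its 18 Control values lay between 23.3 and 30.1 CPM. Activator libraries went from 27.5, 24.6 and 23.7 CPM before induction to 12.7, 18.0 and 13.2 CPM at its end, and to 10.6, 12.9 and 8.72 CPM at 12 h. At 24 h they held 12.5, 18.6 and 14.5 CPM, each above the same replicate at 12 h and each below all 24 h Control libraries. From induction on, the 15 Activator libraries lay below all Control libraries of the same time.

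The log2 fold change of Mavs between the lines was -0.82 at the end of induction (SE 0.13, adjusted p = 3.49e-06), -1.19 at 3 h (SE 0.13, adjusted p = 4e-09), -1.24 at 6 h (SE 0.13, adjusted p = 1.8e-09), -1.34 at 12 h (SE 0.13, adjusted p = 2.97e-10, 2.54-fold lower) and -0.72 at 24 h (SE 0.13, adjusted p = 1.83e-05). Without the 3 libraries it was -1.39 at 12 h and -0.72 at 24 h.

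Tmem173 (ENSMUSG00000024349, chromosome 18, 35733679 to 35740554, minus strand) encodes STING, the adaptor at the endoplasmic reticulum through which cytoplasmic DNA is signalled. Activator cells held 33.3, 38.2 and 36.7 CPM at the end of induction and 34.2, 34.8 and 35.2 CPM at 3 h, against Control cells at 37.3, 39.3 and 35.9 CPM and 42.8, 37.8 and 36.2 CPM. It did not pass at these times (adjusted p = 0.751 and 0.274), when Mavs had passed, although at 3 h it did relative to mitochondrially encoded mRNAs (-0.77, adjusted p = 0.00261). At 6 h Activator libraries were at 29.2, 28.0 and 27.0 CPM, at 12 h at 19.3, 19.6 and 16.1 CPM and at 24 h at 13.6, 27.7 and 16.4 CPM, all below the Control libraries, whose lowest value at any time was 34.7 CPM. The difference was -0.43 at 6 h (SE 0.13, adjusted p = 0.0051, but -0.25 and 0.0579 with DESeq2 size factors), -1.07 at 12 h (SE 0.14, adjusted p = 5.42e-08) and -0.96 at 24 h (SE 0.14, adjusted p = 6.38e-07), and at 24 h it was -1.16 without the 3 libraries (adjusted p = 3.07e-11).

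Irf3 (ENSMUSG00000003184, chromosome 7, 44997648 to 45002848, plus strand), the transcription factor that MAVS, STING and the TLR3 adaptor lead to, was lower in Activator cells at 24 h and slightly higher at 3 h. At 3 h the lines held 26.7, 25.5 and 24.4 CPM (Activator) and 22.5, 22.3 and 21.7 CPM (Control), a log2 fold change of 0.20 (SE 0.08, adjusted p = 0.0312). That direction depended on the scaling, since with mitochondrially encoded mRNAs as the reference it was -0.40 (adjusted p = 0.0446), and the call was lost without TMM and without any of the 3 Control libraries (adjusted p between 0.051 and 0.0992). At 24 h Irf3 was at 14.7, 18.1 and 13.7 CPM in Activator and 24.1, 23.7 and 20.7 CPM in Control cells. The difference was -0.56 (SE 0.08, adjusted p = 1.77e-06, 1.47-fold lower), and -0.55 without the 3 libraries.

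Eif2ak2 (ENSMUSG00000024079, chromosome 17, 78852564 to 78882573, minus strand), which encodes PKR, passed with TMM scaling in no comparison between the lines and in none within them. Between the lines this depended on the scaling. With DESeq2 size factors it was higher in Activator cells, by 0.31 at 6 h (adjusted p = 0.0275) and 0.34 at 24 h (adjusted p = 0.0198), and relative to mitochondrially encoded mRNAs it was lower, at -0.67 at 3 h, -0.57 at 6 h and -0.57 at 12 h (adjusted p = 0.0124, 0.031 and 0.0297). The medians of all genes at the same times were 0.31 and 0.16 on the first scale and -0.44, -0.58 and -0.49 on the second. At 24 h Activator libraries held 45.7, 93.7 and 51.7 CPM and Control libraries 54.9, 55.0 and 52.7 CPM. The high value was again replicate 2, and replicates 1 and 3 lay below all 3 Control ones. At 12 h the values were 45.0, 62.5 and 48.9 CPM against 53.9, 52.1 and 45.8 CPM.

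Adar (ENSMUSG00000027951, chromosome 3, 89715022 to 89753446, plus strand) encodes ADAR1, whose longer form is interferon-inducible and, like ZBP1, binds Z-form RNA. It was lower in Activator cells at the end of induction and higher at 12 and 24 h. The libraries held 34.6, 41.5 and 35.7 CPM (Activator) and 49.0, 51.7 and 51.5 CPM (Control) at the end of induction, and 55.6, 83.3 and 62.5 CPM against 47.1, 45.2 and 47.3 CPM at 12 h. At 24 h they held 58.0, 75.2 and 61.5 CPM against 51.2, 48.6 and 48.3 CPM. The groups did not overlap at any of these 3 times.

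The log2 fold change of Adar was -0.45 at the end of induction (SE 0.13, adjusted p = 0.00426), 0.52 at 12 h (SE 0.13, adjusted p = 0.000785) and 0.38 at 24 h (SE 0.13, adjusted p = 0.0111). The direction at 12 h was not kept on every scale, being -0.08 (adjusted p = 0.765) relative to mitochondrially encoded mRNAs, where the median of all genes was itself -0.49. The 24 h call was lost on that scale (0.19, adjusted p = 0.507) and without Activator replicate 2 (0.31, adjusted p = 0.0546) or Control replicate 2 (0.31, adjusted p = 0.069), although it held without Activator replicate 2 of all 3 later times (0.43, adjusted p = 0.000232).

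Zbp1 (ENSMUSG00000027514, chromosome 2, 173206612 to 173218923, minus strand) showed the largest fold change of the 10 between the lines from 6 h on, from a level close to none. In the 18 Control libraries it lay between 0 and 0.201 CPM, which is 0 to 7 counts. Uninduced Activator libraries held 0.146, 0.117 and 0.0777 CPM (3 to 7 counts), and the level was 0.253, 0.210 and 0.409 CPM at the end of induction and 0.375, 0.380 and 0.314 CPM at 3 h. The gene therefore passed the filter on low counts only through Activator libraries from induction on, where it was higher, and its tests rest on that selection. It reached 0.541, 1.90 and 0.451 CPM at 6 h, 1.35, 3.55 and 1.24 CPM at 12 h and 2.13, 7.66 and 2.55 CPM at 24 h. From induction on, each Activator library lay above each Control library of its time, and replicate 2 was the highest from 6 h on.

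The log2 fold change of Zbp1 was 2.74 at 3 h (SE 0.70, adjusted p = 0.00108), 3.40 at 6 h (SE 0.58, adjusted p = 7.75e-06), 3.79 at 12 h (SE 0.50, adjusted p = 9.8e-08) and 4.60 at 24 h (SE 0.48, adjusted p = 3.79e-09, 24.3-fold). Behind the last value stand 88, 345 and 102 Activator counts and 6, 6 and 6 Control counts. Without the 3 libraries the differences were 2.52 at 6 h, 3.24 at 12 h and 4.08 at 24 h (17.0-fold, adjusted p = 3.78e-10). The lines did not pass at the end of induction (adjusted p = 0.0651), but did with DESeq2 size factors (adjusted p = 0.046).

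**Figure D3:**
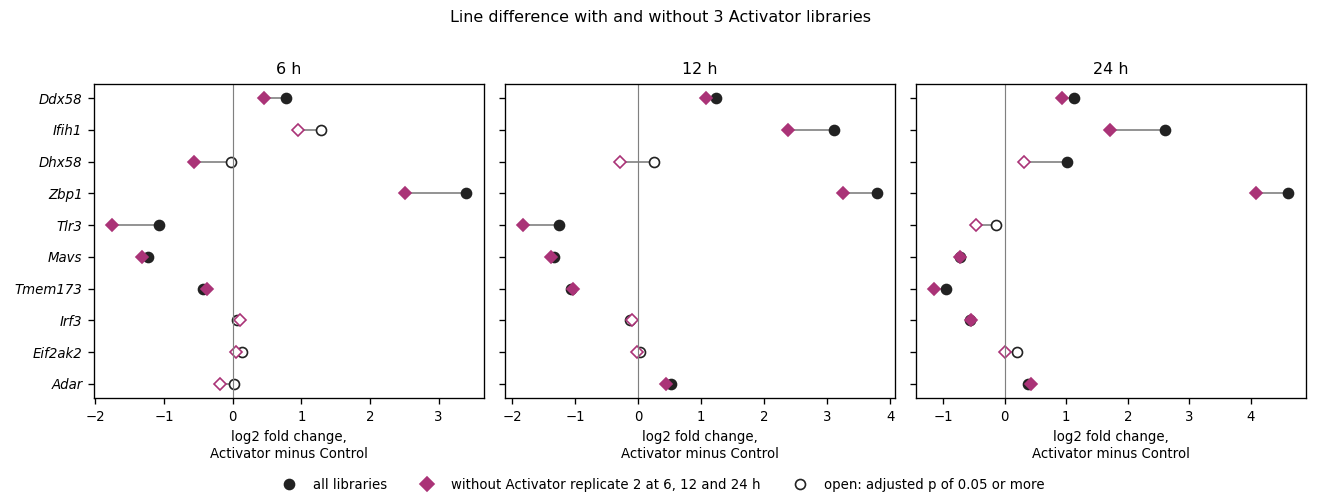
Log2 fold change of Activator against Control cells at 6, 12 and 24 h with all libraries (circles) and without Activator replicate 2 at these times (diamonds), open where the adjusted p was 0.05 or more. Mavs and Irf3 move little, Zbp1 stays above 2 in every panel, and Dhx58 at 24 h goes from 1.02 to 0.32 and is no longer past the test.

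Changes within a line were read against its own uninduced libraries, which all later times share. In Control cells 0 of the 10 passed at any time, with edgeR and with DESeq2, and 0 had an unadjusted p under 0.05. The shares of all genes that passed in this order of times were 0.214%, 0.550%, 0.403%, 1.05% and 0.788%. A fit to the 2 groups of each comparison alone called 2 members at 3 h, 1 at 12 h and 1 at 24 h. In Activator cells 5 passed in the induced state (60.8% of all genes), 3 after 3 h (73.2%), 4 after 6 h (74.4%), 6 after 12 h (75.1%) and 6 after 24 h (62.8%). Without the 3 libraries that stood apart these were 3, 6 and 7 at the last 3 times. The 5 calls of the induced state became 2 without Activator replicate 1 or 3 of that state or replicate 2 of the uninduced state, and 3 without replicate 1 or 3 of the latter.

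Tlr3, Mavs and Zbp1 passed from induction to 12 h within the Activator line, and Mavs and Zbp1 at 24 h too. Tlr3 fell by 0.85 on the log2 scale at the end of induction (SE 0.36, adjusted p = 0.043) and by 1.74 at 12 h (SE 0.38, adjusted p = 0.000213). Mavs fell by 0.80 at the end of induction (SE 0.13, adjusted p = 6.15e-06), by 1.24 at 12 h and by 0.74 at 24 h. Zbp1 rose by 1.41 at the end of induction (SE 0.60, adjusted p = 0.0439), by 4.03 at 12 h (SE 0.51, adjusted p = 5.72e-08) and by 4.99 at 24 h (SE 0.50, adjusted p = 1.89e-09). The Zbp1 tests within the line also rest on its selection by the filter through later Activator libraries. Ddx58 passed from 6 h, at 0.52, 0.64 and 0.84 at 6, 12 and 24 h (adjusted p = 0.0412, 0.0137 and 0.00261), although its 6 h and 12 h libraries overlapped the uninduced ones. Replicate 2 was the highest Ddx58 library at each of these times, and these changes are not given without it. Tmem173 passed at 12 and 24 h, at -0.83 and -0.76.

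Between 12 and 24 h after removal of doxycycline 4 of the 10 passed within the Activator line (37.1% of all genes). Tlr3 rose by 1.32 (SE 0.38, adjusted p = 0.00916), Mavs by 0.50 (SE 0.13, adjusted p = 0.00417) and Zbp1 by 0.96 (SE 0.36, adjusted p = 0.0365), while Irf3 fell by 0.44 (SE 0.08, adjusted p = 0.000292). The 12 h and 24 h libraries overlapped for Tlr3, Mavs and Zbp1 and not for Irf3. The count was 4 again without all 3 libraries and 2 without Activator replicate 1 at 12 h or replicate 2 at 24 h. Tmem173 did not pass between these times.

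To separate what followed induction from what the lines brought with them, the change from the uninduced state was compared between the lines, which still differed in the length of induction. At the end of induction 2 members differed (32.2% of all genes), at 12 h 6 (51.0%) and at 24 h 4 (33.1%). Mavs differed at all 3 times, at -0.68, -1.20 and -0.58 on the log2 scale, and Zbp1 at 12 and 24 h, at 3.73 and 4.55. Tmem173 differed at these times too, at -0.83 and -0.72. The Zbp1 tests again rest on its selection by the filter. The Mavs call at 24 h was lost without any of 4 single libraries (adjusted p between 0.0607 and 0.171). Without Activator replicate 1 at 24 h the Mavs and Tmem173 values of that time were -0.34 and -0.42 and no longer passed (adjusted p = 0.171 and 0.0534). Ddx58 differed at 12 h, at 0.86 (SE 0.32, adjusted p = 0.0284), and Tlr3 at 12 h, at -1.51 (SE 0.52, adjusted p = 0.0179). The difference in Ifih1 was already there before induction and its change from the uninduced state did not pass at any of the 3 times (adjusted p = 0.92 at 12 h and 0.927 at 24 h).

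Per length, the order of the 10 genes in Activator cells was no longer that of the uninduced state. At 12 h Eif2ak2 led at 10.2 ± 1.79 RPKM (SD, n = 3), then Adar at 8.27 ± 1.78, Ddx58 at 6.94 ± 2.62, Tmem173 at 6.69 ± 0.705, Irf3 at 6.10 ± 0.275 and Mavs at 3.22 ± 0.630. The first 5 overlapped with their neighbours, and Mavs lay below Irf3 in all libraries. Dhx58, Zbp1, Tlr3 and Ifih1 followed at 0.746, 0.580, 0.507 and 0.142 RPKM, each overlapping the next. At 24 h Ddx58 was at 8.02 ± 3.76 RPKM and Zbp1 at 1.17 ± 0.873 RPKM, with Zbp1 libraries overlapping those of Tlr3 (1.26 ± 0.836) and Dhx58 (1.16 ± 0.985).

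**Figure D4:**
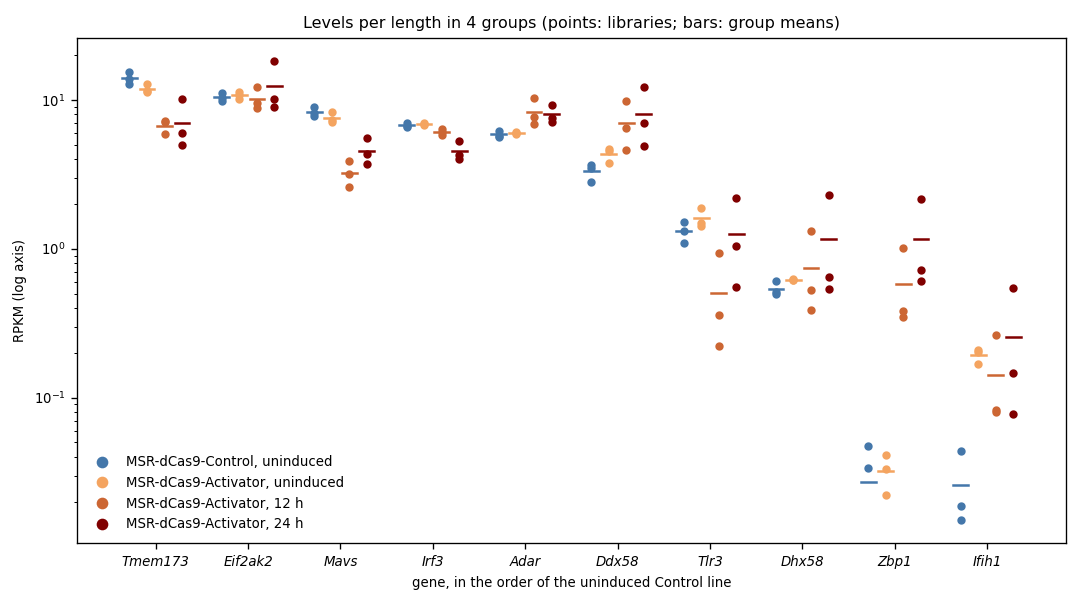
Level per exon length (RPKM, log axis) of the 10 genes in 4 groups of 3 libraries, with bars at the group means. Tmem173 is first in both uninduced groups and Eif2ak2 in the Activator groups at 12 and 24 h, and Zbp1 goes from 0.0322 RPKM in uninduced Activator cells to 1.17 RPKM at 24 h. 1 Control library without a Zbp1 count is not drawn.

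Around the sensors, and listed with earlier results of these data known, 42 partners of the same pathways were followed, of which 41 could be tested. At 12 h 13 were higher and 21 lower in Activator cells, where 41.1% of all genes were higher and 34.1% lower, a median log2 fold change of -0.29 against 0.12 over all genes, and at 24 h 13 were higher and 18 lower (34.5% and 29.4% of all genes), a median of -0.15. More were lower than higher at 12 h on every scale tried, with 15 higher and 19 lower by DESeq2 size factors as the nearest to even, but not at 24 h, where these gave 17 and 15. With these size factors 62.6% of all genes called at 12 h were higher and 63.0% at 24 h. On the mitochondrial scale 9 partners were higher and 27 lower at 12 h, where most genes called were lower as well (36.7% higher). By the limits of the study and with TMM, 2 partners were higher and 6 lower at 12 h. Of all genes 1225 were higher and 3113 lower by these limits, so more lower than higher was not particular to the partners there. Of the 12 kinases and ubiquitin ligases next to the adaptors 2 were higher and 8 lower at 12 h (41.1% and 34.1% of all genes). Traf3, which joins MAVS to the IRF3 kinases, was at 26.5, 38.6 and 29.2 CPM against 67.5, 66.5 and 75.9 CPM (log2 fold change -1.16, SE 0.12, adjusted p = 1.22e-09), and Traf6, a ligase of the NF-κB branch, at 76.9, 108 and 101 CPM against 40.0, 38.9 and 39.5 CPM (1.27, SE 0.11, adjusted p = 7.15e-11). Ikbke, the inducible IRF3 kinase, and Ticam1, the adaptor of TLR3, were lower at 12 h, by log2 values of -1.55 (adjusted p = 4.79e-05) and -1.11 (adjusted p = 8.23e-06).

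Among the 7 DNA sensors and nucleases 1 was higher and 4 lower at 12 h (41.1% and 34.1% of all genes). Aim2, the inflammasome DNA sensor, was lower (-1.08, SE 0.15, adjusted p = 2.16e-07). The gene that was higher was Cgas, named after its values were seen, which encodes the sensor that signals through STING. Cgas was at 3.56, 1.99 and 3.19 CPM in Activator and 0.102, 0.102 and 0.0472 CPM in Control cells at 12 h, a log2 fold change of 5.03 (SE 0.39, adjusted p = 4.26e-12), while its adaptor gene Tmem173 was lower. Replicate 2 was here the lowest of the 3 Activator libraries, at 12 h and, with 4.22, 0.977 and 3.19 CPM, at 24 h. Cgas was close to none in the 12 h Control libraries, so it may have passed the filter on low counts only through Activator libraries. Its tests may then rest on that selection.

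Ripk3, the kinase that ZBP1 engages, was the only partner that passed before induction, and it too was named after its values were seen. It was at 0.502, 0.303 and 0.466 CPM in uninduced Activator cells, against 0 to 1 count in each uninduced Control library. The ratio of summed counts was 29.0 for 55 against 2 (95% exact interval 7.65 to 245, which covers counting error only). The log2 fold change of edgeR was 4.58 (adjusted p = 0.000316). At 24 h Ripk3 was at 0.654, 0.466 and 0.624 CPM in Activator cells and 1, 1 and 4 counts in the Control libraries. With so few Control counts it may have passed the filter only through Activator libraries, and its tests may rest on that selection. Ripk3 thus separated the lines at all 6 times, unlike Zbp1, which did not before induction.

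Of the interferon genes and their signalling proteins, Irf7, the factor that amplifies the interferon response, was higher at 12 h at 7.13, 11.3 and 6.97 CPM against 1.57, 1.59 and 2.15 CPM (2.24, SE 0.29, adjusted p = 7.6e-08). Ifnar1, a chain of the interferon receptor, and Irf1 were lower (-1.01 and -1.40, adjusted p = 7.78e-05 and 0.000199). Ifnb1, the interferon gene under IRF3, was too low to be tested. Its counts in Activator cells were 0, 0 and 0 before induction, 2, 3 and 5 at its end, 11, 8 and 5 at 12 h and 8, 0 and 0 at 24 h, and no Control library held more than 3.

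The interferon-stimulated genes outside the sensors were mostly called late, and both examples given here were highest in replicate 2. This list too was chosen with earlier results of these data known. Of 14 listed 13 were tested, and 0 passed with edgeR before induction (2 at an unadjusted p under 0.05), where 1.23% of all genes did. Then 1 passed in the induced state (57.3% of all genes), 2 after 3 h (70.9%), 10 after 6 h (74.1%), 13 after 12 h (75.2%) and 13 after 24 h (63.9%). At 12 and at 24 h 12 were higher in Activator cells and Ifit2 was lower (-2.23 at 12 h, SE 0.26, adjusted p = 2.6e-08). The median of the list was 4.53 at 12 h and 3.46 at 24 h, and on the mitochondrial scale 9 were higher at 12 h and 11 at 24 h with Ifit2 lower. Isg15, a ubiquitin-like modifier, was at 2.40, 30.8 and 7.94 CPM in Activator and 1.33, 1.18 and 0.753 CPM in Control cells at 24 h (3.25, SE 0.71, adjusted p = 0.000376). Ifit1, which binds foreign 5′ ends, was at 1.02, 28.0 and 6.06 CPM against 0.249, 0.201 and 0.194 CPM (4.93, SE 0.97, adjusted p = 0.000128).

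Without the 3 libraries 12 of these genes could be tested in place of 13, since passing the filter on low counts depended on those libraries too. Of these, 9 were higher and 1 lower at 12 h, and 11 were higher and 1 lower at 24 h, with medians of 2.83 and 3.04. Ifit1 was then at 4.12 at 24 h (adjusted p = 2.56e-06). At 6 h Isg15 did not pass with them (adjusted p = 0.0812) or without them (adjusted p = 0.666). Cgas, by contrast, was at 5.13 at 12 h and 5.36 at 24 h without them.

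**Figure D5:**
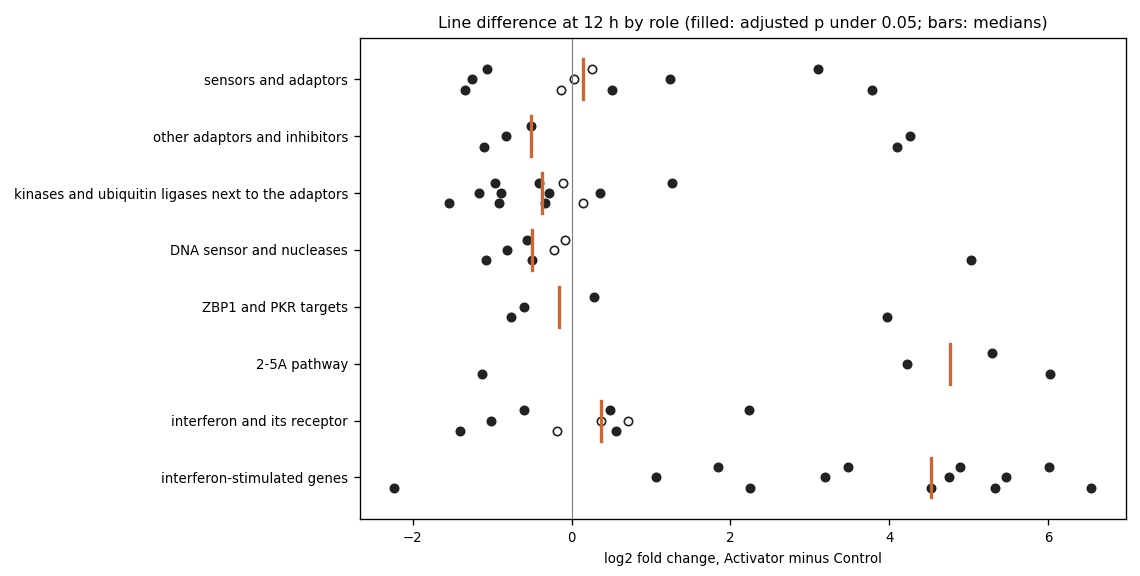
Log2 fold change of Activator against Control cells at 12 h for the 10 genes, 41 partners by role and 13 interferon-stimulated genes, filled where the adjusted p over all genes was under 0.05, with bars at the medians. The sensors and adaptors spread from Mavs at -1.34 to Zbp1 at 3.79 around a median of 0.14, and the interferon-stimulated genes have a median of 4.53 with Ifit2 as the only member below 0.

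The genes whose means over the 12 groups ran most like a member were named by their Pearson correlation, as a description, since the groups belong to 2 lines and most of the transcriptome moved with induction. Among the closest to Mavs were Miga2 and Crk (r = 0.997 and 0.996 over 12 groups). Tmem173 was closest to Cbx3, Aifm1 and Smchd1 (0.996, 0.993 and 0.993), Tlr3 to Trim56, Zfp385a and Kmt2c (0.982, 0.981 and 0.98), and Irf3 to U2af1l4, Smc4 and Cdca3 (0.978, 0.974 and 0.969). Ddx58 was closest to Cyp4f14, Itpr2 and 1700086P04Rik (0.984, 0.983 and 0.983), and Adar to Dlgap1, 4833417C18Rik and Ubn1 (0.971, 0.967 and 0.962). Eif2ak2 had no comparably close neighbour, with 4732414G09Rik first at 0.886, then Gm3020 at 0.885 and Igtp at 0.861.

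Of the 10 genes, 5 overlap exons of a gene on the opposite strand in the annotation, and although the library kit keeps the strand, the strand setting of the counting was not stated. Adar shares 16.8% of its exonic bases with Chrnb2, Tlr3 7.32% with Gm45542, Dhx58 4.31% with Dhx58os, Irf3 2.56% with Bcl2l12 and Eif2ak2 3.40% with Gm26637. How far such reads enter the counts of these members was not tested.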

How the data were processed

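Total RNA was sequenced in 36 libraries made with a strand-keeping kit (TruSeq Stranded). Per the study's methods, the authors trimmed the reads, mapped them with STAR (GRCm38, under the settings TEtranscripts advises) and assigned them to genes and repeats with TEtranscripts. The deposited values are counts without normalisation. Annotation release and the strand and multiple-mapping modes of the counting are not given in the sources used here. Names, positions and exon lengths came from GENCODE M21 by identifier. An unnamed entry, at most 0.00452% of a library, was left out.

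Gene counts were tested with edgeR 4.0.16 (R 4.3.3, quasi-likelihood, TMM, default filter by group) over all 12 groups with the replicate number as a term, as in the study's design, and adjusted by Benjamini-Hochberg over 28536 genes. SE was taken from the log2 fold change and the F statistic. CPM and RPKM were computed here. Alternatives were DESeq2 1.42.0, other scalings, filters, designs and left-out libraries. In simulated counts for the 12 h line comparison (26408 genes), 88 of 100 changes of log2 size 1 and 100 of 100 of size 2 were recovered, with 12 false calls. Only genes with a mean above 100 were changed there, equally up and down, and no library was made to stand apart. The rates therefore do not cover Ifih1, Dhx58 and Zbp1 or data in which most genes change. Replicates are stated to be biological.

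Members and lists were chosen with earlier results of these data known. Named partners were up to 3 per role with the smallest adjusted p at 12 h past the study's limits, and Ifnb1. Of the genes most like a member, up to 3 were named for each, and 1 is not reported here.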

Additional observations from a re-analysis of the deposited data

Results flagged for a closer look

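The members below changed differently from the uninduced state in Activator and Control cells. Each value is the change in Activator cells minus the change in Control cells on the log2 scale, tested as an interaction with edgeR over all genes. At the end of induction it was -0.68 for Mavs (SE 0.18, adjusted p = 0.00476) and -0.48 for Adar (SE 0.18, adjusted p = 0.0448), and the Adar call was lost when any of 9 single libraries was left out.

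At 12 h the value was 3.73 for Zbp1 (adjusted p = 0.00146), 0.86 for Ddx58 (adjusted p = 0.0284) and 0.48 for Adar (adjusted p = 0.0286), the last being -0.14 (adjusted p = 0.796) relative to mitochondrially encoded mRNAs. It was -1.51 for Tlr3 (adjusted p = 0.0179), -1.20 for Mavs (adjusted p = 3.43e-06) and -0.83 for Tmem173 (adjusted p = 0.000623). The Ddx58 call was lost without any of 5 single libraries (adjusted p between 0.0621 and 0.103), and those of Adar and Tlr3 without any of 4. Zbp1 passed the filter on low counts only through Activator libraries from induction on. Its values here and at 24 h rest on that selection.

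At 24 h the value was 4.55 for Zbp1 (adjusted p = 0.000457), -0.58 for Mavs (adjusted p = 0.014), -0.72 for Tmem173 (adjusted p = 0.00423) and -0.58 for Irf3 (adjusted p = 0.000422). The Mavs call was lost without any of 4 single libraries (adjusted p between 0.0607 and 0.171) and the Tmem173 call without 1 (adjusted p = 0.0534). Without Activator replicate 2 at 6, 12 and 24 h, Zbp1 differed by 3.06 at 12 h and 3.91 at 24 h, Tlr3 by -2.12 at 12 h and Tmem173 by -0.93 at 24 h.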

How the results depend on the processing

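Keeping every library, 262 of 301 recomputed values of the member differences that passed, and of Ifih1 at 6 h, stayed on their side of the threshold and in their direction, 35 were no longer past it, 1 was newly past it and 3 reversed, all with mitochondrially encoded mRNAs as the reference: Irf3 at 3 h (-0.40), Adar at 12 h (-0.083) and the difference between lines in the change of Adar at 12 h (-0.14). Of the 47 other member results, which did not pass, 19 passed in at least 1 alternative (31 of 326 recomputed values): 7 values with DESeq2 size factors, 7 with DESeq2, 6 in the fit to the groups compared and 11 on the mitochondrial scale. Among them Irf3 was higher with DESeq2 size factors in the induced state (0.25) and at 6 h (0.24), and lower on the mitochondrial scale at 6 h (-0.64). Leaving libraries out, 409 of 490 stayed, 79 were no longer past the threshold, 2 were newly past it and 0 reversed.

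The deviations of same-numbered Activator and Control libraries of one time correlated at -0.023 to 0.509, over 0.1 in 16 of 18 pairs and not in all, and the labels do not say that a number marks a shared batch. The replicate number was a term of the fit because the study's design has it, and some calls rested on it. Without the replicate block, the members past the test went from 1 to 0 between the uninduced lines, from 5 to 2 within the Activator line at the end of induction, and in the difference between lines from 2 to 1 at that time and from 6 to 3 at 12 h.

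Between the induced lines 5 members in place of 3 passed with DESeq2 size factors, with DESeq2 and in a fit to the 2 groups alone. Between the uninduced lines 0 passed without TMM, without the filter or on the mitochondrial scale. On that scale 7 in place of 3 and 7 in place of 4 passed within the Activator line at 3 h and 6 h. Within it at the end of induction 3 passed without TMM and 2 without the filter. In the difference between lines at the end of induction 1 passed with either DESeq2 alternative, without TMM, without the filter or on the mitochondrial scale, and 4 in the fit to its own groups. That fit called 2, 1 and 1 members within the Control line at 3, 12 and 24 h, and 20 in place of 31 partners at 24 h.

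Leaving out libraries, the members past the test between the lines ran from 0 to 1 (uninduced), 1 to 6 (induced), 3 to 7 (3 h), 2 to 6 (6 h), 6 to 7 (12 h) and 6 to 9 (24 h). Within the Activator line they ran from 1 to 6 (induced), 2 to 6 (3 h), 2 to 4 (6 h), 5 to 6 (12 h), 5 to 8 (24 h) and 0 to 5 (24 h against 12 h), within the Control line they were 0 throughout, and in the difference between lines they ran from 0 to 5 (induced), 1 to 6 (12 h) and 0 to 5 (24 h). Partners ran from 10 to 23 in the induced lines, from 28 to 34 at 12 h and from 18 to 33 at 24 h, where 35 passed without the 3 Activator libraries. The lowest values were mostly those without replicate 3 of all 12 groups, which leaves 24 libraries. Ifih1, Dhx58 and Zbp1 rest on few counts, which limits the precision of their folds.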
